A study of Homo sapiens with 26 samples.

Results

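A set of 7 genes for enzymes that act on steroids, retinoids and monoamines were followed here: SULT1E1, STS, HSD11B2, HSD17B2, MAOA, MAOB and DHRS9. They were taken as all probesets (the short exon regions that the array measures separately) whose platform gene symbol is exactly one of these names, which gave 120 of 844005 probesets. All 7 genes had a gene value, among the 16600 genes measured. The genes were picked with their values on these arrays known, so their levels and differences are given as a description and carry no test.

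The cells were MCF10A, a non-tumorigenic cell line derived from human breast epithelium. Their growth medium held insulin, cholera toxin, hydrocortisone, horse serum and EGF, and after a night of starvation they were treated with both EGF (10 ng per ml) and dexamethasone (DEX, 100 nM), with EGF alone or with DEX alone, or left untreated. EGF is the ligand of the receptor tyrosine kinase EGFR, and DEX is a synthetic ligand of the glucocorticoid receptor (GR). For each treatment, 20, 40 and 60 min were measured on 2 arrays each, and the later times of 120 and 240 min on a single array. Untreated cells had 2 arrays, at time 0 only. With that single time, treatment and time since the medium was changed cannot be told apart in comparisons with untreated cells, whereas EGF+DEX was matched in time with EGF and with DEX. Replicates carry a number and no other label, so the errors below measure the spread between arrays, which may be technical.

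Estrogens and other steroids are switched between active and inactive forms by enzymes that work in opposing pairs. SULT1E1 adds a sulfate group to estrogens, which then no longer bind their receptor, and STS removes it. HSD17B2 oxidises estradiol to the weaker estrone and testosterone to androstenedione, and HSD11B2 oxidises cortisol to inactive cortisone, as it does in the kidney, where it keeps cortisol from the mineralocorticoid receptor. DHRS9 is a short-chain dehydrogenase that oxidises retinol to retinaldehyde, the step before retinoic acid, and also acts on steroids. MAOA and MAOB are flavin enzymes of the outer mitochondrial membrane that deaminate monoamines, MAOA with a preference for serotonin and noradrenaline and MAOB with a preference for phenylethylamine.

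The deposited values were linear intensities from 1 to 19500, analysed on the log2 scale, and 61.1% to 62.7% of the probesets of an array lay above the background, a log2 intensity of 4.65 (the median of the probesets assigned to no gene). Control genes of both receptors were called. Of 5 GR target genes, TSC22D3, FKBP5, SGK1 (1.54 ± 0.12) and ZBTB16 rose with DEX and PER1 was not called (0.22 ± 0.12, SE), and all of FOS, EGR1, EGR3, FOSL1 and DUSP6 rose with EGF. FOS was also called higher with DEX (1.16 ± 0.26, and 1.86 at 40 min), EGR1 and DUSP6 were called lower with DEX (-1.26 at 120 min and -1.46 at 240 min), and PER1 was called higher with EGF (0.32 ± 0.12). Basal epithelial markers were bright (KRT5 from 12.74 to 13.14). Luminal epithelial markers were measured as well, KRT8 from 8.77 to 9.32 and KRT18 from 8.73 to 9.45. GATA3 ran from 7.02 to 8.08 and FOXA1 from 5.96 to 7.68. The leukocyte marker PTPRC lay between 5.19 and 5.80, with 7 of its 47 probesets above background, and CD3E had 4 of 10 above it. CD14, also on the leukocyte list, was brighter than both, between 6.68 and 7.57, with 5 of 7 probesets above background. Of 6 fibroblast markers, DCN alone was called, higher with DEX (0.33 ± 0.13 over the times, 1.26 at 240 min). The summed linear intensity of those 6 markers ran from 574.3 to 1005 in DEX-treated and from 581.5 to 619.2 in untreated cells, and no marker of that list was at 0. Of 6 basal markers TP63 was called, lower with DEX (-0.51 ± 0.12, and -1.28 at 240 min). The part of these markers in the results was not tested.

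SULT1E1 showed the largest mean differences of the 7 genes where DEX was added, alone or to EGF. It averaged 2.89-fold higher in DEX-treated than in untreated cells over the 5 times, and 3.63-fold higher in EGF+DEX-treated than in EGF-treated cells. DHRS9 averaged 1.86-fold and MAOA 1.26-fold higher in DEX-treated than in untreated cells. A gene was called where its limma test across all genes gave a Benjamini-Hochberg adjusted p under 0.05 and its difference reached 1.5-fold. Against untreated cells the difference used was the largest of the 5 times. For EGF+DEX against EGF or DEX it was the mean over the times, so the counts do not follow a single rule. SULT1E1, DHRS9 and MAOA, 3 of 7, were called higher with DEX, against 1.62% of all genes called higher and 1.92% called lower. EGF against untreated called 0 of the 7, against 0.572% of all genes called higher and 0.157% called lower. EGF+DEX against EGF called SULT1E1 higher and no other member, against 0.367% of all genes higher and 0.386% lower, and EGF+DEX against DEX called 0 of 7, against 0.289% higher and 0.0723% lower. MAOA averaged 1.36-fold higher in EGF+DEX-treated than in EGF-treated cells and 2.31-fold higher at 240 min, and was not called under the mean rule. Since the genes were picked on these values, nothing is read from the counts.

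**Figure D1:**
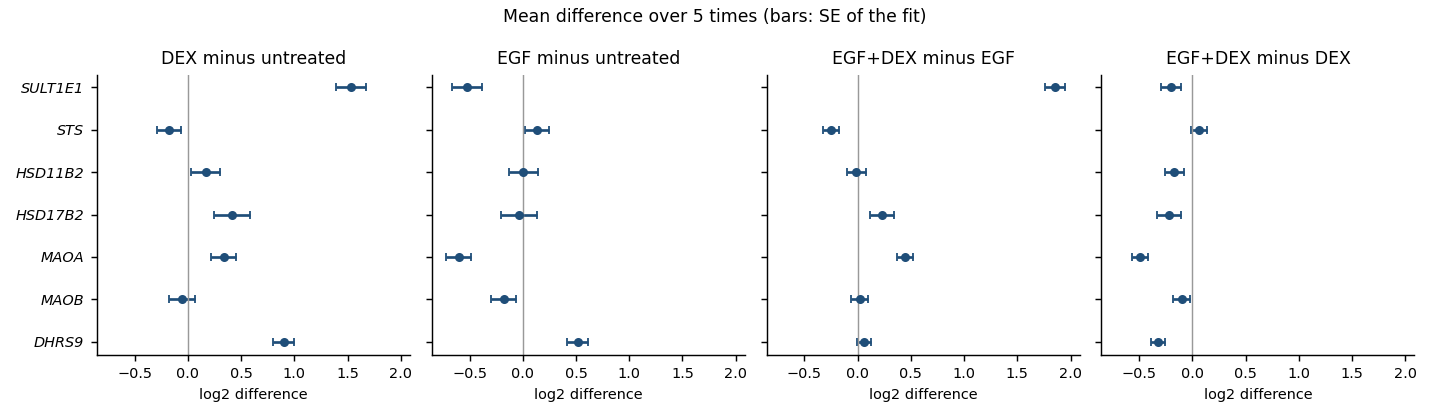
Mean log2 difference over 5 times for each enzyme gene in 4 comparisons (x axis, log2 units), with bars for the SE of the fit. SULT1E1 stands at 1.53 for DEX minus untreated and at 1.86 for EGF+DEX minus EGF, MAOA at -0.60 for EGF minus untreated, and DHRS9 at 0.90 for DEX minus untreated.

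Whole groups of arrays stood apart for 3 genes. All 8 DEX arrays lay above both untreated arrays for SULT1E1 and DHRS9, where 7.13% of all genes had no overlap in either direction. All 8 EGF arrays lay below both untreated arrays for MAOA and above them for DHRS9, where 7.69% of all genes had no overlap. No member separated fully in EGF+DEX against EGF (1.28% of all genes did) or in EGF+DEX against DEX (0.0964%). In a bulk sample, fewer cells that express a gene and less RNA per cell cannot be told apart.

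**Figure D2:**
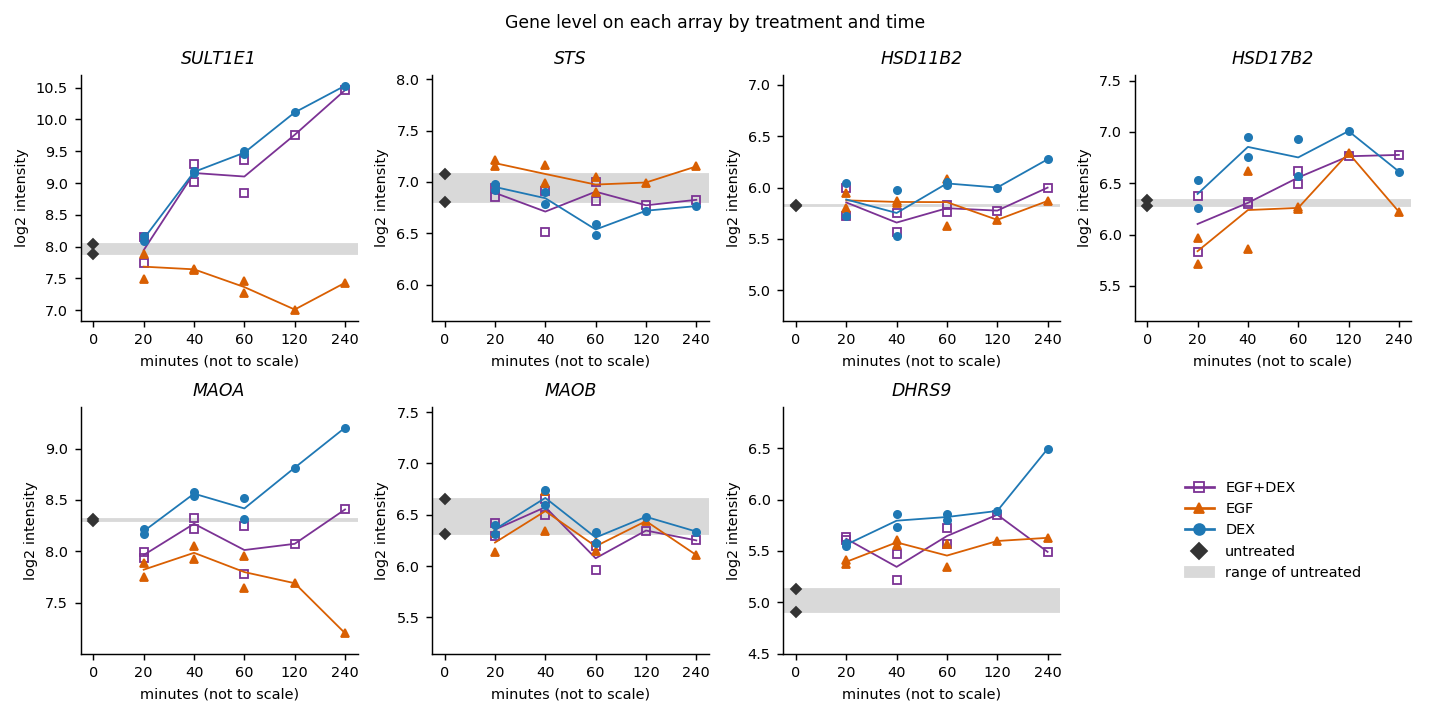
Log2 intensity of the 7 enzyme genes on each of 26 arrays (y axis) by minutes of treatment (x axis, evenly spaced), with lines through the means of each treatment and a grey band for the range of the untreated arrays. SULT1E1 climbs to 10.46 with EGF+DEX and 10.53 with DEX and stays at or below 7.88 with EGF, and its axis spans more log2 units than the others.

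SULT1E1, the estrogen sulfotransferase gene on chromosome 4, had a log2 intensity of 8.14 and 7.75 at 20 min of EGF+DEX, 9.30 and 9.02 at 40 min, 9.36 and 8.85 at 60 min, 9.76 at 120 min and 10.46 at 240 min. In EGF-treated cells it had 7.88 and 7.48 at 20 min, 7.65 and 7.64 at 40 min, 7.46 and 7.27 at 60 min, 7.01 at 120 min and 7.43 at 240 min. DEX-treated cells had 8.16 and 8.08, 9.19 and 9.16, 9.45 and 9.50, 10.11 and 10.53 at the same times, and untreated cells 8.03 and 7.88. The arrays with DEX, with or without EGF, were near the untreated ones at 20 min and well above them from 40 min on, while 7 of 8 EGF arrays lay below both untreated arrays. The difference between DEX-treated and untreated cells was 0.17 ± 0.18 at 20 min, 1.22 ± 0.18 at 40 min, 1.52 ± 0.18 at 60 min, 2.15 ± 0.22 at 120 min and 2.58 ± 0.22 at 240 min (SE of the fit). The last of these is 5.98-fold, and rests on 1 DEX array.

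SULT1E1 was also higher with DEX where EGF was present. EGF+DEX minus EGF was 0.26 ± 0.18 at 20 min, 1.52 ± 0.18 at 40 min, 1.74 ± 0.18 at 60 min, 2.75 ± 0.25 at 120 min and 3.03 ± 0.25 at 240 min, an 8.16-fold difference at the last time. EGF+DEX minus DEX averaged -0.20 ± 0.09, and EGF minus untreated -0.53 ± 0.14. With only the times to 60 min, DEX minus untreated was 0.97 and EGF+DEX minus EGF 1.17. Over the 16 conditions the order ran from DEX at 240 min (10.53) and EGF+DEX at 240 min (10.46), which differed by less than the replicate SD of 0.19, down to EGF at 120 min (7.01). Of the 15 steps between neighbours in that order, 8 exceeded the replicate SD, and the widest (0.98) lay between EGF+DEX at 60 min and DEX at 20 min. Untreated cells were at rank 10 of 16.

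The promoter of SULT1E1 is shown because this gene has the widest range of the 7. The window of 300 bases reaches from 250 bases before to 50 after the RefSeq start, on the minus strand at chr4:69860096-69860395 (GRCh38.p14). Matches were counted in all such windows for the hexamer that makes up each arm of the GR element (TGTTCT or AGAACA, both strands), the GC box of Sp1-type factors (GGGCGG or CCGCCC, both strands) and the TATA box (TATAAA, forward strand), with overlapping matches each counted. Capitals mark matches.
SULT1E1: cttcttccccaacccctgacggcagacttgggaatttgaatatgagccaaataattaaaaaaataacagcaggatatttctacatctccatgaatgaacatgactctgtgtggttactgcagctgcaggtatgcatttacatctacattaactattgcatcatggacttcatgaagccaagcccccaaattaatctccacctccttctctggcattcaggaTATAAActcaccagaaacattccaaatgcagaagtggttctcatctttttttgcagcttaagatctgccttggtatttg
The window holds a TATA box, 29 bases before the start, as 7.33% of 35116 windows do. It has no GR hexamer, which 14.8% of windows have. The complete GR palindrome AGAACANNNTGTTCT was in 1 of the 35116 windows and in none of the 12 windows of the 5 of 7 enzyme genes matched to RefSeq windows (SULT1E1, STS, MAOA, MAOB and DHRS9).

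STS, the steroid sulfatase gene on chromosome X that opposes SULT1E1, moved little. Its log2 intensity ran from 6.51 over a median of 6.84 to 7.0 in EGF+DEX-treated cells, from 6.91 over 7.10 to 7.21 in EGF-treated cells and from 6.49 over 6.77 to 6.98 in DEX-treated cells, and was 7.08 and 6.81 in untreated cells. The EGF arrays sat highest and the treatments overlapped. EGF+DEX minus EGF was -0.25 ± 0.08 and DEX minus untreated -0.18 ± 0.11, against 0.13 ± 0.11 for EGF minus untreated. The widest single difference with DEX was -0.41 ± 0.14, at 60 min. Only 1 of the 15 steps in its order of conditions exceeded the replicate SD of 0.13. Across the 26 arrays STS ran opposite to SULT1E1 (Pearson's r = -0.68), a description over arrays that share treatments and times. Of its 5 promoter windows, 2 hold a GR hexamer, which 14.8% of all windows have.

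HSD17B2, the gene on chromosome 16 for the enzyme that oxidises estradiol, had values of 5.83 and 6.37 at 20 min of EGF+DEX, 6.30 and 6.32 at 40 min, 6.49 and 6.62 at 60 min, 6.76 at 120 min and 6.78 at 240 min. EGF-treated cells had 5.96 and 5.71, 5.85 and 6.62, 6.25 and 6.27, 6.79 and 6.22 at these times. DEX-treated cells had 6.26 and 6.53, 6.95 and 6.76, 6.58 and 6.93, 7.01 and 6.61, and untreated cells 6.28 and 6.34. Thus 7 of 8 DEX arrays and 5 of 8 EGF+DEX arrays exceeded both untreated arrays, while 6 of 8 EGF arrays were below them. The untreated arrays were much closer together than the replicate SD of 0.24, so few arrays could fall between them. Some of the EGF arrays below them (6.25, 6.27 and 6.22) were within that SD. DEX minus untreated was 0.42 ± 0.17 over the times and largest at 120 min, 0.70 ± 0.26. EGF minus untreated averaged -0.04 ± 0.17, with -0.47 ± 0.21 at 20 min and 0.49 ± 0.26 at 120 min. Only 1 step between neighbouring conditions exceeded the replicate SD of 0.24, the largest of the 7 genes, and the gene was called with DEX only when dim probesets were filtered more strictly.

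HSD11B2, the cortisol-inactivating enzyme gene, also on chromosome 16, was dim and stayed close to its untreated level. Of its 9 probesets, 8 lay above the background and 4 above the stricter limit of 5.97, so little can be read from the lack of a difference. The values of HSD11B2 ran from 5.56 over a median of 5.77 to 6.0 in EGF+DEX-treated cells, from 5.63 over 5.86 to 6.09 in EGF-treated cells and from 5.53 over 6.01 to 6.27 in DEX-treated cells, and were 5.82 and 5.83 in untreated cells. All groups overlapped. DEX minus untreated was 0.17 ± 0.14 over the times and 0.45 ± 0.21 at 240 min, where EGF+DEX minus EGF was 0.13 ± 0.24. The mean differences for EGF minus untreated (0.01 ± 0.14) and EGF+DEX minus EGF (-0.01 ± 0.09) were smaller than their errors.

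DHRS9, the retinol dehydrogenase gene on chromosome 2, was higher on each of the 24 treated arrays than on either untreated array. Of all genes, 7.13% had no overlap between DEX and untreated arrays and 7.69% between EGF and untreated arrays, in either direction. The share for all treated arrays together was not counted. Its values were 5.6 and 5.64 at 20 min of EGF+DEX, 5.22 and 5.47 at 40 min, 5.56 and 5.73 at 60 min, 5.85 at 120 min and 5.49 at 240 min. EGF-treated cells had 5.38 and 5.41, 5.56 and 5.61, 5.57 and 5.34, 5.6 and 5.63 at the same times. DEX-treated cells had 5.57 and 5.55, 5.86 and 5.73, 5.86 and 5.80, 5.89 and 6.50, and untreated cells 5.13 and 4.91. The DEX array at 240 min stood highest, 0.61 above the next condition, with a replicate SD of 0.10. These levels are dim: 5 of the gene's 20 probesets lay above the background and only 1 above the stricter limit of 5.97, so the gene value rests on 5 probesets.

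Either agent alone went with a higher DHRS9 level, and both together with a level near that of EGF alone. DEX minus untreated averaged 0.90 ± 0.10 and reached 1.48 ± 0.15 at 240 min, on 1 DEX array, and EGF minus untreated averaged 0.51 ± 0.10. With no brightness filter on the probesets these means were 0.60 and 0.17. EGF+DEX minus EGF was only 0.06 ± 0.07. EGF+DEX minus DEX was -0.32 ± 0.07 over the times and -1.0 ± 0.18 at 240 min, the latter from 1 array of each treatment. At 20, 40, 60 and 120 min EGF+DEX minus DEX was 0.06, -0.45, -0.19 and -0.04. The difference of differences, EGF+DEX minus EGF less DEX minus untreated, was -0.84 ± 0.12. Its DEX minus untreated term is not matched in time, so a rise shared by all treated arrays would also enter it. DHRS9 was the only gene called by the difference of differences (0.00602% of all genes), and the call was kept in 6 of 32 alternative settings. Since DHRS9 was picked with these values known, nothing is read from the call.

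DHRS9 has 4 RefSeq windows, of which those with a GR hexamer are shown, at chr2:169072325-169072624 and chr2:169080857-169081156, both on the plus strand (GRCh38.p14), because DHRS9 was next to SULT1E1 in its difference with DEX. Capitals mark the GR hexamer and, in the first window, also a TATA box.
DHRS9 window 3: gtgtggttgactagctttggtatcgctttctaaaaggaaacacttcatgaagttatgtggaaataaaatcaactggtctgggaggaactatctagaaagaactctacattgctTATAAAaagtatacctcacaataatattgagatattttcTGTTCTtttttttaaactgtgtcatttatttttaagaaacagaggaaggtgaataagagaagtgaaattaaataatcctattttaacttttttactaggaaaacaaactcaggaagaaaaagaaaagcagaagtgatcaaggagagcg
DHRS9 window 4: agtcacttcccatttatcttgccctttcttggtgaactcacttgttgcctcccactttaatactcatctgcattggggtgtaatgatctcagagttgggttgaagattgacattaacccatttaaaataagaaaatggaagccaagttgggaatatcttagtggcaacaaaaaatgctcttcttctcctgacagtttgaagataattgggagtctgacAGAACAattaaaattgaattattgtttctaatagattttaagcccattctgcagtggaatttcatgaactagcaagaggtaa
The hexamer begins 98 bases before the start in window 3 and 32 bases before it in window 4. These windows were picked for holding the hexamer, which 14.8% of all windows have. Window 1, not shown, has a TATA box 32 bases before its start and no GR hexamer. A match is a description of the letters and not a site. The data do not say which start is in use.

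MAOA, on chromosome X, was lower with EGF at each time and higher with DEX from 40 min on. From 40 min on SULT1E1 ran the same way with each agent alone. With EGF+DEX they differed: 7 of 8 arrays lay above both untreated arrays for SULT1E1 and 2 of 8 for MAOA. MAOA had 7.99 and 7.94 at 20 min of EGF+DEX, 8.32 and 8.21 at 40 min, 8.24 and 7.78 at 60 min, 8.07 at 120 min and 8.41 at 240 min. EGF-treated cells had 7.89 and 7.75, 8.05 and 7.92, 7.95 and 7.64, 7.69 and 7.20 at these times. DEX-treated cells had 8.17 and 8.22, 8.54 and 8.58, 8.32 and 8.52, 8.81 and 9.20, and untreated cells 8.31 and 8.29. All 8 EGF arrays were below both untreated arrays, 6 of 8 DEX arrays were above them, and with EGF+DEX 6 arrays were below and 2 above. The untreated arrays were much closer together than the replicate SD of 0.14, so few arrays could fall between them.

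The spread between the agents widened with time. At 240 min DEX minus untreated was 0.90 ± 0.18 (1.87-fold) and EGF minus untreated -1.10 ± 0.18 (0.466-fold), each from 1 treated array, against -0.11 ± 0.15 and -0.48 ± 0.15 at 20 min. EGF+DEX minus EGF was 0.14 ± 0.15 at 20 min and 1.21 ± 0.21 at 240 min, and EGF+DEX minus DEX was -0.23 ± 0.15 and -0.80 ± 0.21 at these times. Over the 5 times DEX minus untreated averaged 0.34 ± 0.12, and this call did not hold when the DEX array at 240 min was left out, which gave a difference of 0.19, nor without DEX replicate 1 at 20 min, with a difference of 0.34, nor with only the times to 60 min, with a difference of 0.09. Over the times EGF minus untreated averaged -0.60 ± 0.12, and this was called in 9 of 33 alternative settings. Of the 15 steps in the order of conditions, 5 exceeded the replicate SD of 0.14, and the widest (0.49) set EGF at 240 min below EGF at 120 min.

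MAOB, the neighbour of MAOA on chromosome X with no annotated gene between them, showed smaller differences. Its values ran from 5.96 over a median of 6.32 to 6.65 in EGF+DEX-treated cells, from 6.11 over 6.28 to 6.73 in EGF-treated cells and from 6.22 over 6.37 to 6.74 in DEX-treated cells, and were 6.65 and 6.31 in untreated cells. The 4 groups overlapped throughout, and no step between neighbouring conditions exceeded the replicate SD of 0.15. DEX minus untreated was -0.06 ± 0.12, EGF minus untreated -0.18 ± 0.12 and EGF+DEX minus EGF 0.02 ± 0.08. The r between MAOA and MAOB over the 26 arrays was 0.40, against 0.78 between MAOA and SULT1E1. The difference between the responses of MAOA and MAOB was not tested.

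Their promoter windows are shown side by side because these genes lie next to each other and code for enzymes of the same kind. They lie at chrX:43656049-43656348 on the plus strand (MAOA) and chrX:43882401-43882700 on the minus strand (MAOB), and capitals mark GC boxes.
MAOA: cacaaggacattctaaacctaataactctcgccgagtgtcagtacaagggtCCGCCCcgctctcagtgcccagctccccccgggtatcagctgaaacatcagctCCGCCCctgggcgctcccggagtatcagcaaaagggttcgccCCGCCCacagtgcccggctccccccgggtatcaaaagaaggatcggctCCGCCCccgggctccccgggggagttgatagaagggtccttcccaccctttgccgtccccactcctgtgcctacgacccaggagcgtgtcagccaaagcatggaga
MAOB: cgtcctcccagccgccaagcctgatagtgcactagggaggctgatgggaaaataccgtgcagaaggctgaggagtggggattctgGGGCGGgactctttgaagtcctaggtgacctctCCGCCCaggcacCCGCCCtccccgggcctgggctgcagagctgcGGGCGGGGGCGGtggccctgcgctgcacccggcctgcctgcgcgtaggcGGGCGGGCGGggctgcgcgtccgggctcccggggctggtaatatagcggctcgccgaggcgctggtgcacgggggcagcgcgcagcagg
MAOA has 4 GC boxes, all on the opposite strand, and MAOB has 7, on both strands and partly overlapping. Of all windows, 45% hold at least 1 GC box, 9.06% at least as many as MAOA and 1.5% at least as many as MAOB. Neither window holds a GR hexamer or a TATA box.

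Single probesets showed how evenly each difference was spread along a gene. For SULT1E1 all 11 probesets above background were at least 1.5-fold higher with DEX than in untreated cells, by 1.06 to 2.54 on the log2 scale, and all 11 also in EGF+DEX minus EGF, by 1.42 to 3.26. For DHRS9 all 5 probesets were at least 1.5-fold higher with DEX, by 0.69 to 1.14, and 0 of 5 in EGF+DEX minus EGF. Of its 15 probesets not above background, 6 were at least 1.5-fold higher with DEX and 2 were lower, with a median of 0.41, against 1.07 for the 5. The filter used the mean over all 26 arrays, 24 of them treated. It therefore favours dim probesets that rise with treatment, and the 5 of 5 is no support for the difference. For MAOA 21 of 22 were lower with EGF than in untreated cells, 12 of them by at least 1.5-fold. With DEX 18 of these 22 were higher over the times and 4 lower, from -0.48 to 1.34, and 6 were at least 1.5-fold higher, against 16 at 240 min alone. The 9 probesets of HSD17B2 were all higher with DEX, by 0.20 to 0.58, and none reached 1.5-fold over the times. The probesets of STS, HSD11B2 and MAOB lay on both sides of 0 in each of these comparisons. The probesets of a gene share the same RNA and are not replicates.

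**Figure D3:**
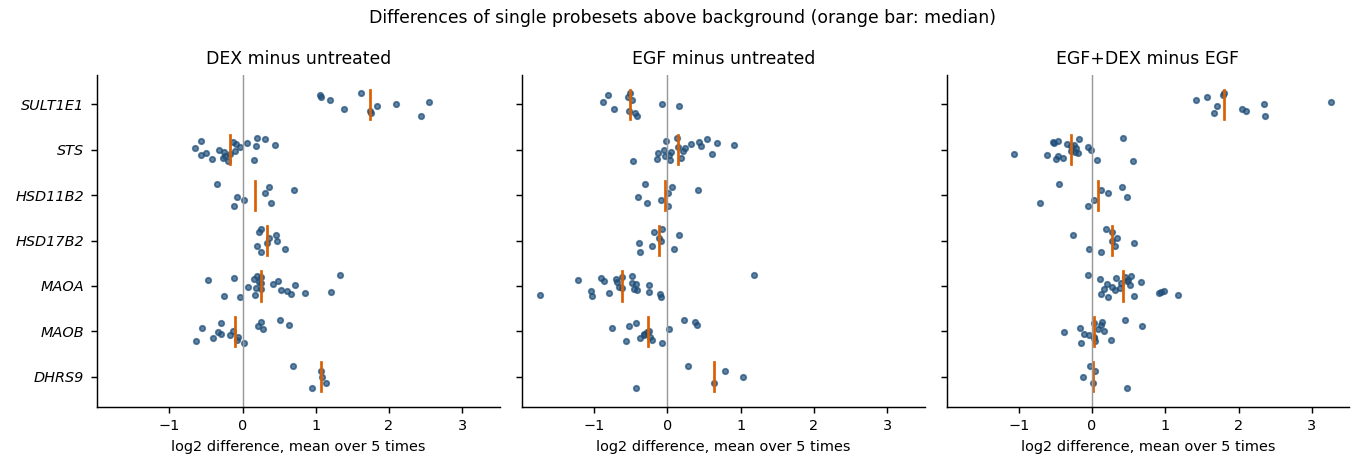
Log2 difference of each probeset above background, as the mean over 5 times (x axis), by gene and comparison, with an orange bar at the median. The 11 probesets of SULT1E1 lie between 1.06 and 2.54 for DEX minus untreated, and those of STS, HSD11B2 and MAOB lie on both sides of 0.

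The genes with the most similar pattern were found by Pearson's r over the 26 arrays among all measured genes, as a description over arrays that share treatments and times. SULT1E1 was closest to PSCA and GLUL (both 0.98) and ACSL1 (0.97), and MAOA to TG (0.93), UNC5B and PDCD4 (both 0.90). STS came with NUPL1 (0.90), TMEM38B and CP110 (both 0.89), and MAOB with CLU (0.82), ORAI3 and GSN (both 0.81). HSD17B2 was nearest to PYGB (0.77), BBS10 (0.73) and SEC14L2 (0.72). DHRS9 was nearest to CXCL14 (0.75), ADRA1B (0.74) and PTGFR (0.72), and HSD11B2 to ZNF620 (0.70), CXCL14 and SLC41A3 (both 0.63). Each value is among the highest of 16600 genes, and how high such values run for unrelated genes was not tested. Nothing is read from the lower ones.

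The other genes of these pathways mostly did not pass the test. Of 155 genes listed by function, 134 were measured: 18 for sulfation and sulfate removal, 35 for other steroid enzymes, 38 for retinoid enzymes and carriers, 31 for amine breakdown, synthesis and uptake and 12 steroid and retinoid receptors. With DEX 1 rose and 1 fell, with EGF 3 rose and none fell, and EGF+DEX called 0 against EGF and 0 against DEX (limma). The shares of all genes called are those given above for each comparison, 1.62% higher and 1.92% lower with DEX and 0.572% higher and 0.157% lower with EGF. At an unadjusted limma p under 0.05, DEX gave 22 listed genes (16.4%, against 17.9% of all genes), EGF 21 (15.7%, against 10.9%), EGF+DEX against EGF 43 (32.1%, against 38.2%) and EGF+DEX against DEX 21 (15.7%, against 17.1%). With an adjusted p under 0.05 but no fold minimum the listed genes numbered 3 with DEX (2.24%, against 3.85% of all genes), 3 with EGF (2.24%, against 0.753%), 20 for EGF+DEX against EGF (14.9%, against 20.3%) and 6 against DEX (4.48%, against 3.14%). The list medians for DEX minus untreated lay between -0.07 (sulfation) and 0.04 (amines), against -0.06 over all genes, and those for EGF minus untreated between -0.08 (retinoids) and -0.02 (amines), against -0.01. The difference of differences called 0 of the 134 genes, and 5 had an unadjusted p under 0.05.

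SRD5A1, the steroid 5-alpha-reductase that turns testosterone into dihydrotestosterone, rose with DEX. It had a lowest, median and highest log2 intensity of 7.98, 8.42 and 8.75 on DEX arrays and 8.07 and 8.10 on the untreated arrays, a mean difference of 0.38 ± 0.10 and 0.67 at 120 min (limma adjusted p = 0.0238, range over alternatives 0.00969 to 0.262). ALDH1A3, which oxidises retinaldehyde to retinoic acid, fell with DEX, with 7.46, 8.34 and 8.68 on DEX arrays and 8.67 and 8.45 on the untreated arrays, a mean difference of -0.38 ± 0.12 and -1.10 at 240 min (limma adjusted p = 0.00861, range 0.00399 to 0.494). Both groups of arrays overlapped for both genes. Leaving out the DEX array at 240 min ended the limma call for ALDH1A3 (difference -0.20, adjusted p = 0.357) and for SRD5A1 (0.32, adjusted p = 0.0739). For SRD5A1 it also ended without untreated replicate 1 or 2 (limma adjusted p = 0.0552 and 0.0548) and without DEX replicate 1 or 2 at 20 min (0.0546 and 0.0817). With only the times to 60 min neither gene was called (limma adjusted p = 0.494 for ALDH1A3 and 0.262 for SRD5A1).

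LRAT, which esterifies retinol for storage, rose with EGF. It had 6.13, 6.67 and 7.23 on EGF arrays and 6.23 and 6.35 on the untreated arrays, a mean difference of 0.52 ± 0.11 and 0.94 at 240 min (limma adjusted p = 0.00567, range 0.00324 to 0.16), and its call ended with the stricter brightness filter (adjusted p = 0.0932) and with only the times to 60 min (0.16). The polyamine enzymes SMOX (spermine oxidase) and SAT1 (spermidine and spermine acetyltransferase) rose as well. SMOX had 7.72, 8.15 and 8.66 on EGF arrays and 7.56 and 7.73 on the untreated arrays, a mean difference of 0.51 ± 0.12 (limma adjusted p = 0.0183, range 0.00815 to 0.0863), and its call was lost without untreated replicate 2 (adjusted p = 0.0863) or EGF replicate 1 at 60 min (0.0663) and with no brightness filter (0.0536). The EGF and untreated arrays overlapped for LRAT and SMOX. SAT1 had 8.57, 9.03 and 9.17 on EGF arrays and 8.08 and 8.37 on the untreated arrays, a mean difference of 0.73 ± 0.12 (limma adjusted p = 0.0405, range 0.0117 to 0.307), and was called in 15 of 33 alternatives. Its groups did not overlap, as was so for 7.69% of all genes in either direction. The call ended without any of the untreated arrays, the EGF, DEX or EGF+DEX arrays at 20 or 60 min or the EGF+DEX arrays at 40 min (limma adjusted p from 0.0536 to 0.307), with the replicate block (0.0569) and with no brightness filter (0.106), and it was weakest without untreated replicate 2, with a difference of 0.58. Of enzymes and receptors chosen after their values were seen, for their role beside the members, HSD11B1, which regenerates cortisol, gave 0.27 ± 0.22 with DEX and the GR gene NR3C1 gave -0.27 ± 0.11, and neither was called (limma adjusted p = 0.527 and 0.279).

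**Figure D4:**
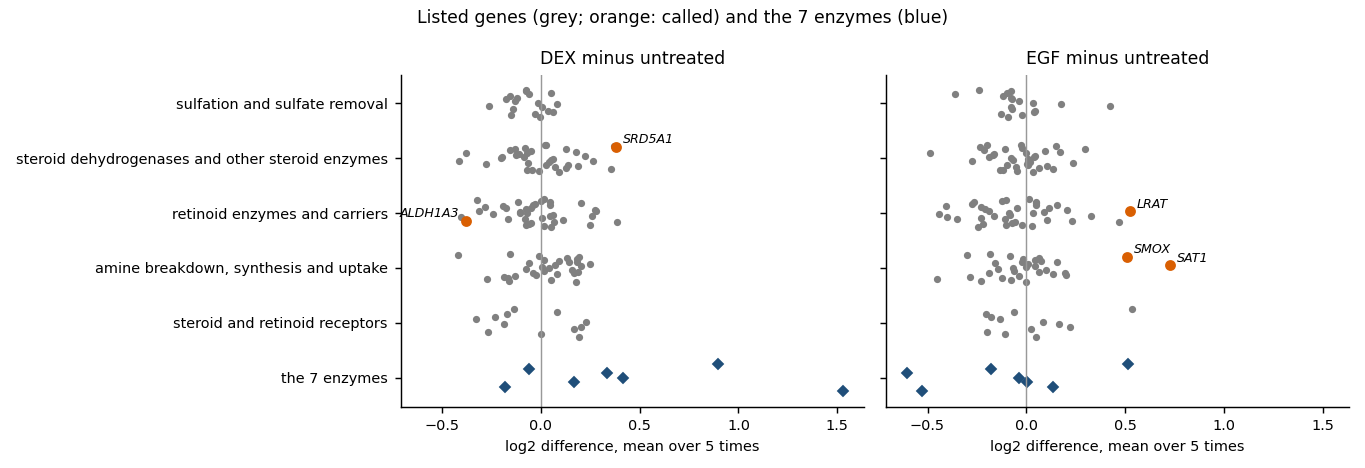
Mean log2 difference over 5 times (x axis) of 134 genes in 5 function lists (grey, called genes in orange with their names) and of the 7 enzymes (blue), for DEX minus untreated and EGF minus untreated. The listed genes lie between -0.49 and 0.73, while SULT1E1 stands at 1.53 and DHRS9 at 0.90 with DEX.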

How the data were processed

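RNA of MCF10A cells was hybridized by the authors to Human Exon 1.0 ST arrays of Affymetrix and analysed with the Affymetrix Expression Console. The authors deposited linear intensities, 1 value per probeset and array. How probes were summarised and corrected for background is not given in the sources used here. For the fits, log2 of the intensity was used with no further normalization, since no quartile of an array departed from that of another by more than 0.0971. A single gene symbol was assigned to 354421 probesets, several to 14891 (left out) and none to 474693. A gene value is Tukey's median polish of the probesets whose mean exceeds the median of those without a gene (4.65), where a gene has at least 3. Gene names are those of the platform annotation, with current symbols matched through RefSeq synonyms. Some listed genes are not reported here.

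A limma model of 16 group means (10 residual degrees of freedom) was fitted to all 16600 genes and tested on simulated data. DEX and EGF were tested against untreated cells with moderated F-tests over 5 times, and direction and size were taken at the time of the largest difference. EGF+DEX was tested against EGF and against DEX, and the difference of differences likewise, as the mean over the times. The Benjamini-Hochberg adjustment ran over all genes, and a call needed an adjusted p under 0.05 and 1.5-fold. Errors are SE of the fit, and the single arrays at 120 and 240 min are assumed to vary like the other groups. The number of arrays limits the precision.

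The members and lists were chosen with earlier results of these data known. The text names each member, the listed genes called in a comparison, the 3 genes closest in pattern to each member, and the control genes. Alternatives were no or a stricter brightness filter (log2 intensity 5.97), quantile normalization, the mean of probesets, limma's trend and robust options, a replicate block, a fit of the times to 60 min alone, and leaving out single arrays. Promoters are RefSeq's for GRCh38.p14. The tools were limma (version 3.58.1), matrixStats (1.5.0) and data.table (version 1.17.8) in R 4.3.3, and matplotlib 3.10.9 in Python 3.11.15.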

Additional observations from a re-analysis of the deposited data

Results flagged for a closer look

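DHRS9 stood out because DEX minus untreated was larger than EGF+DEX minus EGF. Only EGF+DEX minus EGF is matched in time, and all treated arrays lay above both untreated arrays, which were taken at time 0. A rise shared by all treated arrays and a DEX difference that changes with EGF cannot be told apart here. The difference of differences was -0.84 ± 0.12 on the log2 scale, with EGF+DEX minus EGF at 0.06 ± 0.07 and DEX minus untreated at 0.90 ± 0.10. The sign was the same in all 32 alternative settings, with values from -0.95 to -0.54, and the call held in 6 of them. Since DHRS9 was picked with these values known, the difference is a description and carries no test. With the stricter brightness filter the gene had no value, since only 1 of its 20 probesets passed.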

How the results depend on the processing

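The differences of SULT1E1 with DEX (0.97 to 1.70) and with EGF+DEX against EGF (1.17 to 2.01) were called in all 33 alternatives, and that of DHRS9 with DEX (0.60 to 1.01) in all 32 that gave it a value. Except for the fit with no filter, these 32 kept the brightness filter, which favours dim probesets that rise with treatment. Since the genes were picked on these values and the alternatives reuse the same arrays, nothing is read from these calls. No called difference changed sign. For the count of enzymes called with EGF, 0 as reported, the stricter filter, quantile normalization and the trend and robust options each gave 1 (MAOA), and leaving out an array gave 0 to 1. Over all genes these 3 settings called 146, 128 and 156 with EGF, in place of 121. With DEX leaving out an array gave 2 to 3 enzymes, with EGF+DEX against EGF 1 to 1 and against DEX 0 to 0.

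Of the listed pathway genes, DEX called 2, against 4 with no filter, 6 with the stricter filter, 0 with only the times to 60 min and 0 to 4 with an array left out. EGF called 3, against 1 with no filter and 1 to 3 with an array left out. EGF+DEX against EGF called 0, against 1 with no filter and 0 to 1 with an array left out, and against DEX 0 to 0.

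Over all genes, only the times to 60 min gave 77 calls with DEX in place of 588, 70 with EGF in place of 121 and 34 for EGF+DEX against DEX in place of 60. Leaving out an array gave 209 to 615 with DEX (209 without its 240 min array), 66 to 139 with EGF, 99 to 146 for EGF+DEX against EGF, 38 to 69 against DEX and 0 to 1 for the difference of differences. That last count was 1, and 0 with no filter, with the mean of probesets, with the trend and robust options and with only the times to 60 min. The cause of these shifts was not tested, beyond the smaller number of arrays and times.

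The labels do not say whether replicate numbers pair the samples. Over 45 pairs of groups the correlation of the deviations ran from -0.20 over a median of 0.03 to 0.31, and exceeded 0.1 in 12. These values cannot settle whether some of the arrays are paired. With the number as a replicate block, EGF called 2 enzymes (SULT1E1 and MAOA) in place of 0, the difference of differences called 0 genes in place of 1, and the EGF call of SAT1 was lost (limma adjusted p = 0.0569). Over all genes the block gave 133 calls with EGF in place of 121, and nothing is read from the count of enzymes. Probe brightness limits DHRS9, whose probesets are mostly at background, and HSD11B2, with 4 of 9 probesets above the stricter limit.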
